A study of Mus musculus with 4 samples.

Results

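The 30 genes described here build cholesterol and fatty acids and are known targets or parts of the sterol regulatory element-binding protein (SREBP) system. They were taken by name from a list, with no threshold on their values but with earlier results of these data known, out of 54532 genes counted in 4 RNA-seq libraries of C3H10T1/2 cells, a mouse mesenchymal line that the labels call stem cells. The list holds 18 enzymes of the sterol branch, 4 regulators or transport proteins (Srebf1, Srebf2, Insig1 and Stard4) and 8 enzymes of the fatty acid branch. All 30 were found, held 351 to 81807 reads in a library, and passed the filter on low counts.

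The unedited line (WT) and a line with a CRISPR edit at the splice acceptor of Prdx1 intron 5 (PRDX1MT, whose genotype label reads PRDX1-KO) gave 1 library each. The DNMT3A/B double knockout (DKO) gave 2 libraries, clone 1 and clone 5, each from a single clone. All were grown in medium with 10% fetal bovine serum. The series set out to study how a promoter is silenced by readthrough transcription, and the labels state no question about lipid genes. Nothing in the labels says whether the DKO clones carry a Prdx1 edit, or names repeat cultures, so a difference between single libraries has no replicate check.

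As background, SREBPs are transcription factors made as membrane proteins of the endoplasmic reticulum. When sterols are scarce, Scap carries them to the Golgi, where proteases free the active part. When sterols are plentiful, Insig proteins hold Scap back. The product of Srebf2 acts mainly on sterol genes and that of Srebf1 mainly on fatty acid genes, usually beside the factors NF-Y and Sp1. Cells grown in serum also take up cholesterol from lipoproteins.

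Library totals ran from 27570136 to 37685798 reads. Levels are given as CPM, the reads of a gene as a share of its library on a common scale, after TMM scaling, which assumes that most genes do not differ between libraries. Prdx1 stood at 399 CPM in WT, 31.2 in PRDX1MT, 392 in clone 1 and 332 in clone 5, low in the line edited there. Dnmt3a was at 43.7, 80.9, 31.3 and 25.9 CPM in the same order, and Dnmt3b at 3.28, 3.74, 2.83 and 2.03. The labels do not say which part of either gene was edited, so these levels do not check the knockout. The fibroblast collagens and Vim were abundant in all 4 libraries (summed level of 11 mesenchymal markers 24177 to 43932 CPM), but Nt5e stayed under 1 CPM and Thy1, at 29.0 CPM in WT, was between 0.757 and 1.38 CPM in the edited lines. The 8 fat cell markers summed to 51.2 CPM in WT, 76.9 in PRDX1MT, 62.4 in clone 1 and 48.5 in clone 5. Most of this came from the regulators Pparg (33.9, 16.6, 50.1 and 36.6 CPM) and Cebpa (16.4, 59.8, 8.16 and 10.8), with Fabp4 at most 3.17. Lep was at 0 in every library, and Adipoq, Plin1 and Cidec were at most 0.869 CPM. The hepatocyte, epithelial, immune and endothelial lists (4 genes each) summed to at most 16.8 CPM in any library.

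DKO clone 5 held the lowest level of 29 of the 30 genes, while DKO clone 1 lay near WT for most. Over all genes with at least 100 reads, clone 5 was the lowest of the 4 libraries for 25.2%. Clone 5 was below clone 1 for 30 of 30 genes (50.5% of all genes) and below WT for 29 of 30 (51.9%), with Fasn, the fatty acid synthase, as the exception. The summed level of the 30 genes was 7634 CPM in WT, 8433 in PRDX1MT, 8126 in clone 1 and 4592 in clone 5. In bulk RNA, fewer cells with these transcripts and less of them per cell cannot be told apart.

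**Figure D1:**
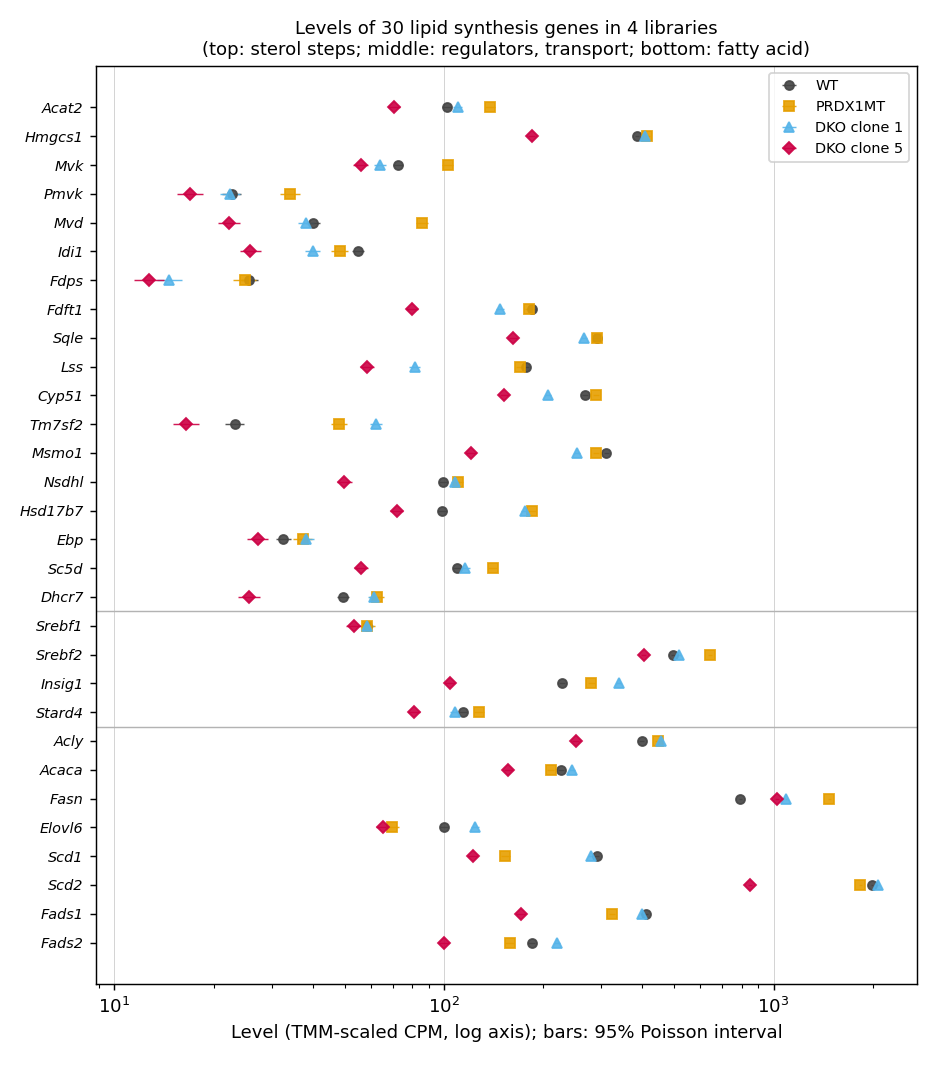
Levels of the 30 genes (TMM-scaled CPM, log axis) in the 4 libraries, with exact 95% Poisson intervals that cover counting error only. The clone 5 diamonds lie farthest left in every row except Fasn, where WT at 794 CPM is lowest.

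The promoters of 4 members are printed because each stands for a pattern below. Hmgcs1 held the only exact match to TCACNCCAC, the shorter form of the sterol regulatory element searched. Lss had the lowest ratio to WT in both DKO clones. Mvd had the largest ratio in PRDX1MT, and Fasn did not follow the others in clone 5. Each is the 250 bases before the RefSeq start (GRCm38.p6), 5′ to 3′ on the gene's strand. Capitals mark TCACNCCAC (a form of the sterol regulatory element), CCAAT (the NF-Y box) or GGGCGG (the GC box bound by Sp1) on either strand. Hmgcs1 lies at chr13:119690101-119690350 on the plus strand, Lss at chr10:76531355-76531604 on the plus strand, Mvd at chr8:122443423-122443672 on the minus strand and Fasn at chr11:120824548-120824797 on the minus strand. In Fasn, 2 of the CCAAT matches overlap on opposite strands.
Hmgcs1: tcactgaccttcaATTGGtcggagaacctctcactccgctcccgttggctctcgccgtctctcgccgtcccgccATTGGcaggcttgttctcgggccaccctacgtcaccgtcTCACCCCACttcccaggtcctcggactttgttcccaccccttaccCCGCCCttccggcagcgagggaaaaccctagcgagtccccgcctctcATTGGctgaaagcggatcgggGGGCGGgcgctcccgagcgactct
Lss: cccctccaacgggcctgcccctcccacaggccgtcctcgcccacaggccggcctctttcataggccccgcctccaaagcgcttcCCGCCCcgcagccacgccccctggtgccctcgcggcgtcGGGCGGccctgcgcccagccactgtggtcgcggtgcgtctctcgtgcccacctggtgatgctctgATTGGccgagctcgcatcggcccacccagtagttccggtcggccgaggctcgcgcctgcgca
Mvd: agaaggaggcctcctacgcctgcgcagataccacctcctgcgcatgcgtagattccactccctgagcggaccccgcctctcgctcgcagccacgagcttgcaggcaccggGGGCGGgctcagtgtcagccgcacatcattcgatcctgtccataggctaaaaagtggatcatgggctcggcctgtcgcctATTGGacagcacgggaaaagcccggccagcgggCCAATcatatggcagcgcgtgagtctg
Fasn: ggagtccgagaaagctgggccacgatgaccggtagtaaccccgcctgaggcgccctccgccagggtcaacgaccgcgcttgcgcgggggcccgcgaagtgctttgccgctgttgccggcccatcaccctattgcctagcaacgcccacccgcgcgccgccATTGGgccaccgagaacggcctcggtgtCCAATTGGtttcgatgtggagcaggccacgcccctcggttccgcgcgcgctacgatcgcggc

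The RefSeq promoter table matched 23 of the 30 genes (not Fdps, Fdft1, Sqle, Stard4, Scd1, Scd2 and Fads1), and those were searched on both strands over the same 250 bases, counting a gene if any of its starts matched. CCAAT was found in 14 of 15 sterol genes (93.3%), all but Acat2, in 3 of 3 regulators, and in 1 of 5 fatty acid genes (20%), Fasn. The Acaca stretch searched (chr11:84195188-84195437) lies inside the annotated gene (chr11:84129672-84401651), so its lack of a match does not cover the first start. The stretch searched for Tm7sf2 also lies inside its gene. The CCAAT matches of Dhcr7 came only from a stretch inside its gene. Among 9922 genes with at least 100 reads CCAAT was found in 40.8%, and among all 27025 genes of the table in 37.5%. GGGCGG was found in 14 of 15 sterol genes, all but Pmvk, in 3 of 3 regulators and in 2 of 5 fatty acid genes (Acly and Fads2), against 63.7% of genes with at least 100 reads and 35.4% of all genes. Both motifs stood together in 16 of 23 members (69.6%) and in 26.4% of genes with at least 100 reads.

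CACGTG, an E-box, was found in Hsd17b7, Sc5d, Dhcr7 and Insig1 (17.4% of members, 9.97% of genes with at least 100 reads and 6.86% of all genes). TCACNCCAC was found in Hmgcs1 alone (4.35% of members, 1.27% of genes with at least 100 reads and 1.22% of all genes), with its first base 137 bases before the start. These are letter matches and not measured sites. Only exact matches were counted, so a sterol regulatory element that differs by a letter was missed. A gene without a match may still hold such an element.

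**Figure D2:**
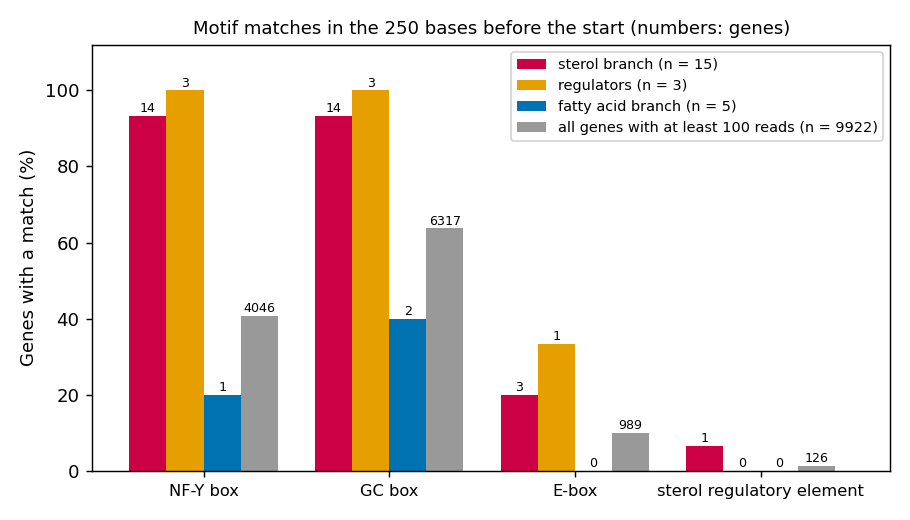
Share of genes (%) with a motif match in the 250 bases before the start, by branch, beside all genes with at least 100 reads; the number over each bar counts the genes. The NF-Y box (CCAAT) reaches 93.3% of the 15 sterol genes searched and 20% of the 5 fatty acid genes searched. Among genes with at least 100 reads it reaches 40.8%.

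Single libraries were compared by a size rule. It asked for a log2 ratio of scaled CPM (prior count 2) of 1 or more in either direction, for 100 or more reads summed over the pair, and for a 95% conditional binomial interval clear of 0. Against WT, 10 of 30 members passed the rule lower in clone 5 (background 8.58% of 12626 genes) and 0 passed higher (5.69%). These were the sterol enzymes Hmgcs1, Idi1, Fdps, Fdft1, Lss and Msmo1, the regulator Insig1, and the desaturases Scd1, Scd2 and Fads1. Nsdhl, at a log2 ratio of -0.998, lay just short of the rule. In clone 1, 1 passed lower (Lss, background 7.56% of 12935 genes) and 1 higher (Tm7sf2, 8.4%). In PRDX1MT, 2 passed higher (Mvd and Tm7sf2, 7.25% of 12693 genes) and 0 lower (7.57%), but with total-count scaling 0 passed higher (4.29%) and 1 lower (13.7%). Between the clones, 12 of 30 passed lower in clone 5 than in clone 1 (10.7% of 12317 genes) and 0 higher (7.63%): Hmgcs1, Tm7sf2, Msmo1, Nsdhl, Hsd17b7, Sc5d and Dhcr7 of the sterol branch, Insig1, and the 4 desaturases. With each clone set against the same WT library, Lss alone passed lower in both (3.85% of 12449 genes) and 0 passed higher in both (1.65%).

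**Figure D3:**
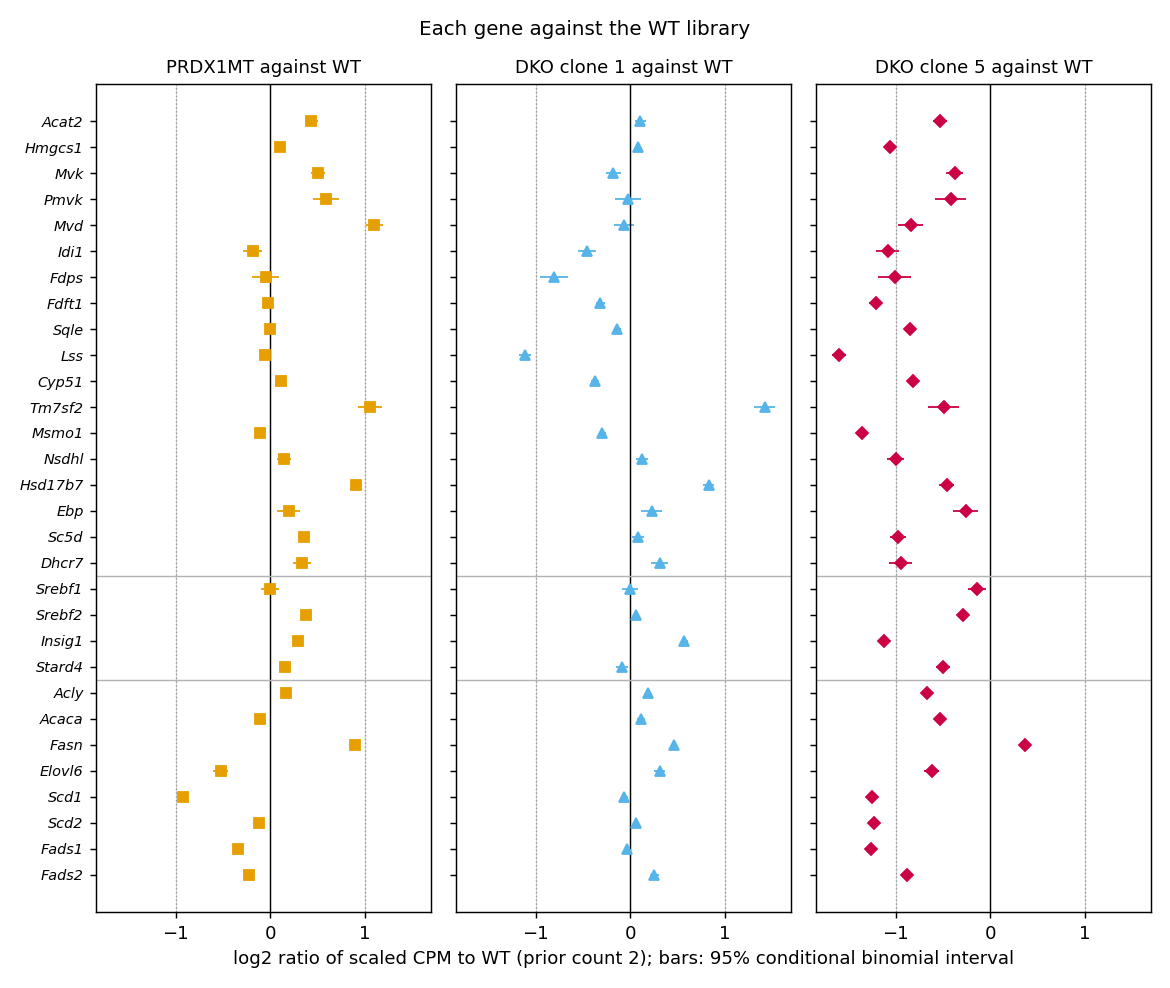
Log2 ratio of scaled CPM to WT for each gene in PRDX1MT, DKO clone 1 and DKO clone 5, with 95% conditional binomial intervals that cover counting error only; dotted lines mark the size rule at 1 and -1. In clone 5 all points but Fasn lie left of 0, with a sterol branch median of -0.90 and a fatty acid branch median of -0.77.

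The sterol branch begins with the mevalonate steps. Hmgcs1, which makes the precursor of mevalonate, was at 385 CPM in WT, 414 in PRDX1MT, 407 in clone 1 and 184 in clone 5. Clone 5 alone stood apart, 2.09-fold lower than WT (95% interval 2.02 to 2.16). Mvd, which decarboxylates the product of the mevalonate kinases, was at 40.0 CPM in WT, 85.9 in PRDX1MT, 38.2 in clone 1 and 22.3 in clone 5. PRDX1MT was the high library, 2.15-fold above WT (2.01 to 2.29). The enzymes before Mvd showed the same order of the extremes: Acat2, a thiolase, was at 102, 138, 110 and 70.6 CPM (WT, PRDX1MT, clone 1, clone 5), the mevalonate kinase Mvk at 72.4, 103, 63.9 and 55.9, and the phosphomevalonate kinase Pmvk at 22.7, 34.1, 22.4 and 17.0. PRDX1MT was thus highest and clone 5 lowest for each of these 5 genes with TMM scaling. With total counts Hmgcs1 was lower in PRDX1MT than in WT.

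For Idi1 and Fdps, which turn the isoprenoid unit into farnesyl diphosphate, WT was the highest library in place of PRDX1MT. Idi1 was at 54.9 CPM in WT, 48.2 in PRDX1MT, 40.0 in clone 1 and 25.9 in clone 5. Fdps was at 25.7, 24.8, 14.7 and 12.8 CPM in the same order. Exons of Fdps share 1124 bases with Gm43738 on the same strand, so its level is uncertain. Both DKO clones lay under both other libraries for 5 of the 7 mevalonate steps (14.0% of all genes). These were Mvk, Pmvk, Mvd, Idi1 and Fdps. The median log2 ratio to WT over the 7 mevalonate steps was 0.43 in PRDX1MT, -0.07 in clone 1 and -0.84 in clone 5.

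All 3 genes of the squalene and lanosterol steps were lower than WT in both clones, by any size (33.0% of all genes). Lss, the lanosterol synthase that closes the sterol ring (chr10:76531588-76557138, plus strand), was at 177 CPM in WT, 170.5 in PRDX1MT, 81.5 in clone 1 and 58.4 in clone 5. The DKO mean was 70.0 ± 16.4 CPM (SD, n = 2). Both clones lay below both other libraries, an order held by 14.0% of all genes. Clone 1 was 2.17-fold lower than WT (95% interval 2.08 to 2.26) and clone 5 was 3.03-fold lower (2.87 to 3.20). Fdft1, the squalene synthase, was at 184 CPM in WT, 181 in PRDX1MT, 148 in clone 1 and 79.8 in clone 5. Sqle, which oxidises squalene, was at 292, 291, 266 and 162 CPM in the same order. PRDX1MT and WT were close for all 3 genes with TMM scaling, at log2 ratios of -0.05 to -0.01. With total counts all 3 ratios moved farther below 0. Exons of Lss share 381 bases with 4930483K19Rik and those of Fdft1 774 bases with Ctsb on the other strand. The strand setting of the counting is not given in the sources used here, so reads of the partners cannot be told apart.

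Of the 8 steps after lanosterol, Msmo1, which removes methyl groups from the sterol, was at 311 CPM in WT, 289.6 in PRDX1MT, 254 in clone 1 and 121 in clone 5, with clone 5 2.57-fold lower than WT (2.47 to 2.67). Cyp51, the lanosterol demethylase, was at 268, 289, 207 and 152 CPM in the same order. Both genes were lower in clone 1 than in WT, and lower again in clone 5. The other 6 genes were all above WT in clone 1, at log2 ratios from 0.08 to 1.42 (Sc5d turned to -0.02 with total-count scaling), and all below WT in clone 5.

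Tm7sf2, a sterol reductase, had the widest spread of the 30 genes between the clones: 23.2 CPM in WT, 48.2 in PRDX1MT, 62.2 in clone 1 and 16.5 in clone 5. Clone 1 was 2.69-fold above WT (2.49 to 2.90), PRDX1MT 2.08-fold above it (1.91 to 2.26), and clone 5 3.78-fold below clone 1 (3.41 to 4.19). Its exons share 532 bases with Vps51 on the same strand, so part of its reads is uncertain. Hsd17b7, a ketosteroid reductase, was at 98.7, 185, 176 and 71.9 CPM in WT, PRDX1MT, clone 1 and clone 5, with PRDX1MT and clone 1 high again. Dhcr7, which makes cholesterol from its last precursor on this route, was at 49.4, 62.5, 61.4 and 25.6 CPM, and clone 5 was 2.40-fold below clone 1 (2.20 to 2.61). Sc5d, a sterol desaturase, was at 109.8, 140.5, 116 and 56 CPM, and Nsdhl, a sterol dehydrogenase, at 99.6, 110.2, 108 and 49.8. Ebp, a sterol isomerase, differed least of the sterol enzymes between clone 5 and WT, at 32.6, 37.3, 38.1 and 27.2 CPM.

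The SREBP genes themselves differed less between libraries than most of the enzymes. Srebf1 was at 58.5 CPM in WT, 58.6 in PRDX1MT, 58.4 in clone 1 and 53.2 in clone 5, the smallest change of the 30 genes in clone 5. Srebf2 was at 494, 642, 516 and 404 CPM in the same order. PRDX1MT was 1.30-fold above WT for Srebf2 (1.27 to 1.33) with TMM scaling. With total counts the ratio was smaller than this interval. These are levels of messenger RNA, and the cut, active protein was not measured.

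Insig1, the sterol-bound retention protein and itself an SREBP target, was at 228 CPM in WT, 280.0 in PRDX1MT, 339.6 in clone 1 and 105 in clone 5. The 2 DKO clones were the extremes: clone 1 was 1.49-fold above WT (1.45 to 1.53), clone 5 was 2.18-fold below it (2.09 to 2.28), and clone 5 was 3.25-fold below clone 1 (3.12 to 3.38). Stard4, which carries cholesterol between membranes, was at 114, 128, 108 and 80.9 CPM in WT, PRDX1MT, clone 1 and clone 5.

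In the fatty acid branch the desaturases were the genes lowest in clone 5 relative to WT. Scd2, a stearoyl-CoA desaturase (chr19:44293674-44306864, plus strand), was at 1988 CPM in WT, 1834 in PRDX1MT, 2078 in clone 1 and 849.9 in clone 5, and clone 5 was 2.34-fold lower than WT (2.31 to 2.37). Scd1, its neighbour and near copy (chr19:44394455-44407879, minus strand), was at 291, 153, 279 and 122 CPM in the same order. Here PRDX1MT was low too, 1.90-fold below WT (1.83 to 1.97). Reads of Scd1 and Scd2 may be shared, and how the counting treated reads with several places is not given in the sources used here.

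Fads1, the front-end desaturase that introduces a double bond near the acid end of polyunsaturated chains, was at 409 CPM in WT, 324 in PRDX1MT, 399 in clone 1 and 171 in clone 5, with clone 5 2.40-fold below WT (2.32 to 2.47). Fads2, the companion desaturase, was at 185, 158, 220.3 and 99.98 CPM in the same order. For all 4 desaturases WT and clone 1 lay above PRDX1MT, and PRDX1MT above clone 5. Acaca and Elovl6, given below, had this order too. Its share over all genes was not counted.

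Fasn, which builds palmitate, had its own pattern: 794 CPM in WT, 1476 in PRDX1MT, 1091 in clone 1 and 1024 in clone 5. All 3 edited libraries were above WT, PRDX1MT by 1.86-fold (1.83 to 1.89) and clone 5 by 1.29-fold (1.27 to 1.31). Acly, which supplies acetyl-CoA from citrate, was at 398, 446, 455 and 251 CPM in WT, PRDX1MT, clone 1 and clone 5. Acaca, the carboxylase that makes malonyl-CoA, was at 226, 211, 244 and 157 CPM. Elovl6, which lengthens palmitate, was at 100, 69.5, 124 and 65.2 CPM, with PRDX1MT and clone 5 low.

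The branches were set side by side by their medians. In PRDX1MT the median log2 ratio to WT was 0.17 over the 18 sterol genes and -0.17 over the 8 fatty acid genes, a difference of 0.34. All genes tested had a median of -0.01. Under scaling by total counts the sterol median turned to -0.11 and the fatty acid median to -0.44, while all genes tested moved to -0.28, so the distance from all genes stayed. Of the 18 sterol genes, 12 were above WT in PRDX1MT, and of the 8 fatty acid genes 6 were below it. In all, 12 of the 30 genes were below WT in PRDX1MT (51.8% of all genes), and 19 with total counts (68.6%). With TMM scaling, PRDX1MT was the highest library for 10 of 18 sterol genes and 1 of 8 fatty acid genes (14 of all 30 members, against 23.6% of all genes). This order depends on the scaling. With total counts fewer members had PRDX1MT highest, and Hmgcs1 and Cyp51, for example, fell below WT there.

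In clone 1, 14 of 30 genes were below WT (51.5% of all genes), or 18 of 30 with total counts (58%). The medians were -0.04 for the sterol and 0.15 for the fatty acid branch, against -0.04 for all genes tested. In clone 5 they were -0.90 and -0.77, against -0.02. Between the clones, clone 5 to clone 1, they were -0.74 and -1.03, against 0.00 over all genes tested. The summed level of the sterol branch was 2348 CPM in WT, 2652 in PRDX1MT, 2214 in clone 1 and 1209 in clone 5. That of the fatty acid branch was 4391, 4672, 4891 and 2740, so its sum in PRDX1MT was above WT while its median ratio was below 0. Fasn, at 1476 against 794 CPM, was the larger of the 2 fatty acid genes above WT there. Both DKO clones lay below both other libraries for 10 of 18 sterol genes and 0 of 8 fatty acid genes (12 of all 30 members, against 14.0% of all genes), and above both for 0 of 30 (12.7%). Against WT alone, 14 of 30 were lower in both clones (33.0% of all genes). WT was the highest library for 8 of 30 (26.1%), clone 1 for 8 (25.7%) and clone 5 for 0 (24.7%).

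The test of the DKO clones as a group was edgeR's quasi-likelihood test, with Benjamini-Hochberg adjustment over 19446 genes. Against WT, 0 of 30 members passed an adjusted p of 0.05 (background 0.468%, 0.0154% higher and 0.453% lower), while an unadjusted p under 0.05 was reached by 1 (5.08% of all genes). That gene was Lss, at a log2 fold change of -1.34 (SE 0.46, unadjusted p = 0.0202, edgeR adjusted p = 0.677). Against PRDX1MT, 0 of 30 passed (0.206%, 0.0103% higher and 0.195% lower) while 2 reached an unadjusted p under 0.05 (4.69%): Mvd at -1.50 (SE 0.48, unadjusted p = 0.0152, edgeR adjusted p = 0.716) and Lss at -1.28 (SE 0.46, unadjusted p = 0.0241, edgeR adjusted p = 0.854). Fold changes were below 0 for 26 of 30 members against WT and 27 of 30 against PRDX1MT (47.7% and 46.8% of genes tested). Against WT the median log2 fold change was -0.37 in the sterol branch and -0.19 in the fatty acid branch, with 0.03 over all genes tested. The comparisons share the DKO libraries. DESeq2 also called 0 members in each.

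The spread between the 2 clones is the only spread in that fit, and SEs of the members against WT ran from 0.44 to 0.76 on the log2 scale. A difference carried by clone 5 alone enters the fit as spread. Leaving out a clone was possible only with WT and PRDX1MT joined as 1 group, so that the spread then came from those 2 genotypes and the lone clone was assumed to vary like them. Without clone 1, 30 of 30 members were lower (55.0% of genes in that fit), 12 had an unadjusted p under 0.05 (6.57%) and 0 passed the adjustment (edgeR, lowest adjusted p = 0.269). Without clone 5, 15 of 30 were lower (54.5%) and 1 had an unadjusted p under 0.05 (7.42%).

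Per kilobase of exon, Scd2 was the most abundant transcript of the 30, with a mean level over the 4 libraries of 309 RPKM (scaled CPM per kilobase). Fasn followed at 100.1 RPKM, then Insig1 at 77.0, Hmgcs1 at 75.7, Acly at 73.4 and Srebf2 at 71.5. The last 4 means differ by less than each gene's own range over the libraries. At the low end were Srebf1 at 10.2, Dhcr7 at 8.55, Tm7sf2 at 8.52 and Fdps at 4.63 RPKM. Scd2 was the highest of the 30 in each library, at 364 RPKM in WT, 336 in PRDX1MT, 380 in clone 1 and 156 in clone 5.

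Other genes of the pathway were read from lists chosen by function. Against WT and PRDX1MT, edgeR called none of them (0.468% and 0.206% of all genes). Of 10 genes for SREBP processing and its control, 0 passed the size rule in any library pair. Over all genes, 14.3% to 18.4% passed in either direction, depending on the pair. The median log2 ratio of clone 5 to WT was 0.13. Mbtps1, the protease that makes the first cut, was at 191, 182, 243 and 214 CPM in WT, PRDX1MT, clone 1 and clone 5. Scap, the escort protein, was at 73.6, 106, 85.5 and 87.6 CPM. Neither was lower in clone 5 than in WT, but 3 of the 10 genes were (51.9% of all genes).

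Of 8 other genes of sterol and isoprenoid synthesis, 0 passed the size rule in any pair (14.3% to 18.4% of all genes in either direction). The clone 5 median was 0.21. Lbr, a lamin receptor with sterol reductase activity that overlaps that of Tm7sf2, was at 77.2, 82.5, 54.4 and 103 CPM in WT, PRDX1MT, clone 1 and clone 5. Nus1, a subunit of the enzyme for dolichol, was at 71.5, 84.8, 78.1 and 77.2. Lbr and Tm7sf2 were thus opposite in the clones: Lbr was lowest in clone 1 and highest in clone 5.

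Of 18 other fatty acid genes, 16 held enough reads for the size rule. In clone 5 against WT, 4 passed it lower (8.58% of all genes) and 0 higher (5.69%). Tecr, a chain elongation reductase, was at 142, 135, 159 and 134 CPM in WT, PRDX1MT, clone 1 and clone 5, Elovl5, an elongase of polyunsaturated chains, at 126, 123, 108 and 85.7, and Slc25a1, the mitochondrial citrate carrier, at 94.6, 125, 108 and 57.2. The 4 that passed were Acacb, Acss2, Lpin1 and Acsl4, named after their values were seen. Acss2, which makes acetyl-CoA from acetate and is a known SREBP target, was at 22.3, 18.7, 11 and 7.77 CPM, and like Lss it was lower in both clones.

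Of 12 genes of cholesterol export, storage, lysosomal handling and oxysterol metabolism, with the oxysterol receptors (LXR) among them, 7 held enough reads. In clone 5 against WT, 1 passed lower (8.58% of all genes) and 1 higher (5.69%). In clone 1, 3 passed higher (8.4%) and 0 lower (7.56%). In PRDX1MT, 2 passed higher (7.25%) and 0 lower (7.57%). Npc2, a lysosomal cholesterol carrier, was at 288, 316, 599.9 and 320.4 CPM in WT, PRDX1MT, clone 1 and clone 5, with clone 1 high. Soat1, which esterifies cholesterol, was at 160.5, 125, 158 and 127 CPM, and Lipa, the lysosomal lipase, at 121, 88.7, 122 and 84.4. The gene that passed higher in clone 5 was Apoe, a carrier of exported lipid, at 1.99, 4.18, 7.43 and 4.83 CPM, with clone 1 highest. The gene that passed lower in clone 5 was Abca1, the cholesterol exporter. Both are named after their values were seen. Abca1 was at 32.4, 99.1, 164 and 15.0 CPM. Like Insig1 it was highest in clone 1 and lowest in clone 5.

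**Figure D4:**
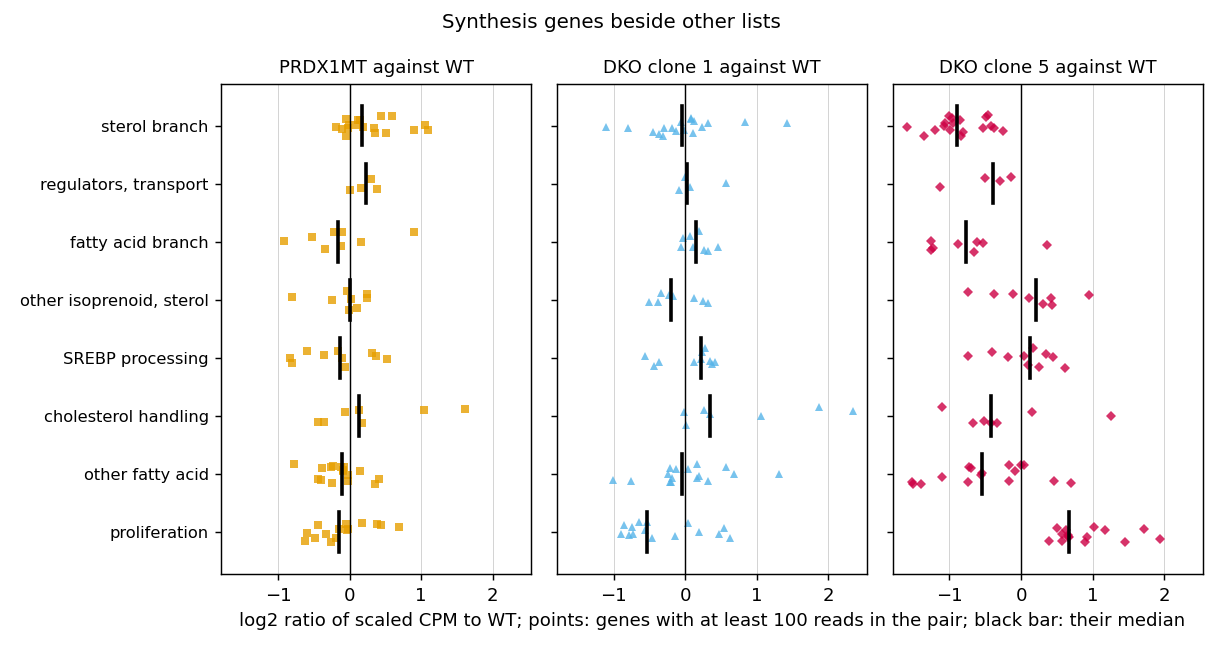
Log2 ratio of scaled CPM to WT for every gene with at least 100 reads in the pair, by list, in PRDX1MT, DKO clone 1 and DKO clone 5; black bars are medians. In clone 5 the sterol branch lies at a median of -0.90 and the fatty acid branch at -0.77, SREBP processing at 0.13 and proliferation at 0.67.

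Genes of cell division were high where the lipid genes were low. All 15 proliferation genes were highest in clone 5 (24.7% of all genes). Their summed level was 1548 CPM in WT, 1408 in PRDX1MT, 1205 in clone 1 and 2856 in clone 5. Mki67, a marker of cycling cells, was at 426, 282, 229 and 661 CPM, Top2a, a topoisomerase of dividing cells, at 295, 285, 214 and 469, and Mcm3, of the replication helicase, at 83.7, 113, 95.3 and 189. The 12 immediate-early genes summed to 2322, 6449, 9822 and 2124 CPM, high in PRDX1MT and clone 1. Egr1 was at 508, 1153, 2094 and 521 CPM, Fosb at 351, 1090.0, 1464 and 185, and Junb at 222, 1003, 1338 and 310. The share of reads from mitochondrial genes was 2.08% in WT, 0.519% in PRDX1MT, 2.05% in clone 1 and 0.872% in clone 5. The part of these differences in the levels of the 30 lipid genes was not tested.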

How the data were processed

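RNA was sequenced from C3H10T1/2 cells in 4 libraries (1 WT, 1 PRDX1MT, 2 DKO clones), from total RNA depleted of ribosomal RNA with a strand-keeping kit, per the labels' protocols. The submitters' processing notes name the aligner STAR 2.6.1d and the build mm10. How reads were counted (program, annotation, use of strand) is not given in the sources used here. Each deposited file holds raw counts, whole numbers that the authors did not normalize. Symbols came from GENCODE M21 (GRCm38), which held 54495 of 54532 identifiers. The other 37 stayed unnamed.

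Tests ran in edgeR 4.0.16 (with limma 3.58.1, under R 4.3.3) and, as an alternative, in DESeq2 1.42.0, other steps in Python 3.11.15 with scipy 1.17.1. The edgeR quasi-likelihood fit used TMM factors, filterByExpr by group and 19446 genes. The DKO clones gave the fit 1 residual degree of freedom (prior degrees of freedom 6.54, common dispersion 0.187), and it assumes that WT and PRDX1MT vary like them. A p-value here reflects the spread of these samples alone, which the labels do not tie to separate cultures beyond the clone. Each statistical script was tested on simulated data with less spread than these libraries and larger changes than most members show. Such a test checks the code and not the power to find changes here.

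Folds between single libraries are ratios of scaled CPM, with 95% conditional exact binomial intervals, and levels have exact Poisson intervals. Without molecular identifiers, PCR copies count as separate reads, so these cover counting error only. A count of 0 allows up to 3 reads, or 0.0729 to 0.121 CPM. RPKM is scaled CPM per kilobase of merged exons. Exons of 7 members overlap a gene on the other strand and those of 4 a gene on the same strand.

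All 30 members are named. From each other list, genes called by edgeR and the 3 with the highest mean CPM are named, with exceptions marked; some of these genes are not reported here. The members and lists were chosen with earlier results of these data known. Alternatives covered scaling, filters, prior count, the size rule, the samples fitted, DESeq2 and leaving out each clone.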

Additional observations from a re-analysis of the deposited data

How the results depend on the processing

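No member was called by edgeR or DESeq2 under the alternatives run. The number of genes called against WT, 91, was 535 with no filter on low counts, 0 with at least 1 CPM in 2 libraries (490 at an unadjusted p under 0.05) and 262 with DESeq2. Against PRDX1MT, 40 genes became 13 with RLE scaling, 7 with total counts, 404 with no filter, 0 with at least 1 CPM in 2 libraries (530 at an unadjusted p under 0.05), 11 with the 2 groups alone and 215 with DESeq2. Leaving out each clone in turn, with WT and PRDX1MT joined, gave 21 to 92 called genes for each comparison. Members past the size rule in PRDX1MT went from 2 higher and 0 lower to 0 and 1 with total counts (4.29% and 13.7% of all genes), to 5 and 1 with a log2 ratio of at least 0.58 (15.9% and 18.7%), and to 1 higher (6.5%) with total counts without Gm26917, the gene with the most reads, an alternative chosen after seeing the data. With 0.58, clone 1 had 2 higher (17.6%) and 2 lower (17.0%), and clone 5 had 19 lower against WT (18.2%) and 20 lower against clone 1 (20.7%). The PRDX1MT medians were -0.11 (sterol) and -0.44 (fatty acid) with total counts, and 0.10 and -0.24 without Gm26917. Gm26917 held 10.55% of reads in WT, 22.26% in PRDX1MT, 5.36% in clone 1 and 12.2% in clone 5. Member fold changes kept their direction in 280 of the refits and reversed in 20. With total counts these were Ebp against WT (-0.11), and Srebf1 (0.088) and Acaca (0.092) against PRDX1MT. The rest differed in sign from DKO against WT when a clone was left out and WT and PRDX1MT were joined, which changes 2 choices at once (log2 range over both clones): Hmgcs1 -1.11 to 0.048, Tm7sf2 -1.11 to 0.82, Nsdhl -1.07 to 0.066, Hsd17b7 -0.98 to 0.33, Ebp -0.36 to 0.15, Dhcr7 -1.13 to 0.15, Srebf1 -0.14 to 0.017, Insig1 -1.28 to 0.44, Acly -0.75 to 0.13, Acaca -0.48 to 0.18, Fasn -0.15 to -0.037, Elovl6 -0.38 to 0.57, Scd1 -0.86 to 0.35, Scd2 -1.17 to 0.14, Fads1 -1.10 to 0.14 and Fads2 -0.78 to 0.38. Fasn was below 0 whichever clone was left out. Single-library ratios of the members stayed inside their counting interval in 97 recomputations and left it in 83. The cause of these shifts was not tested, apart from the libraries and genes that each alternative leaves out. No paired analysis was possible because the labels give the groups no shared replicate numbers. Depth was no limit for the members, which held at least 351 reads in each library. The 2 clones and the single WT and PRDX1MT libraries limit every comparison.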
